A study of Homo sapiens with 8 samples.

Results

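The RNAs described here are the expressed intergenic long noncoding RNAs of MDA-MB-231 cells, a human cell line grown from a breast cancer that lacks hormone receptors. They were chosen from the round 2 table of levels as genes of type lincRNA that reached an FPKM (read count scaled to gene length and library size) of 1 or more in 2 or more of its 4 libraries, leaving out the SNHG genes, GAS5, NEAT1 and MALAT1. The rule found 285 RNAs of 7803 lincRNA genes and of 58676 genes of all types. Of these, 220 were also listed in round 1, and all 220 entered the test, while 65 were listed in round 2 only. They were measured by RNA-seq of poly-T-selected RNA from cells given 1-SO, 1-S or vehicle, with or without UV-A. Both compounds are triphenylphosphonium salts with a dibenzothienylmethyl arm, which in 1-SO carries an oxo group that 1-S lacks.

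The groups were as follows. Round 1 gave 1 library of cells with 10 µM 1-SO under UV-A, 1 with 10 µM 1-SO in the dark, and 1 library each of irradiated and dark vehicle cells (1% DMSO), all at passage 8. Round 2 gave 1 library with 10 µM 1-S under UV-A, 1 with 10 µM 1-S in the dark, and again 1 each of irradiated and dark vehicle cells, at passage 32 to 34. Incubation lasted 24 h at 600000 cells per well, and irradiation 30 min under 8 bulbs between 325 and 375 nm. A compound group is a single well, so no compound value has a replicate check, and compound, round and passage cannot be told apart. In bulk RNA, fewer cells that express an RNA and less of it per cell cannot be told apart.

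Libraries held 15.8 to 22.6 M counted reads, of which the 285 RNAs took 0.181 to 0.236% in round 2. The 1-SO UV-A library stood apart in its share of mitochondrial reads, 0.93%, against 2.58 to 3.02% in the other round 1 libraries and 2.40 to 3.12% in round 2. The part of this in the 1-SO results was not tested. Defining markers fitted the line in part. VIM, CD44 and KRT18 were each above 28 FPKM in all 8 libraries, ESR1, PGR and CDH1 were at 0.14 FPKM or less, and markers of blood, liver and endothelial cells reached at most 0.41 FPKM. ERBB2, at 9.78 to 29.2 FPKM, and GATA3, at 2.46 to 3.47 FPKM, were not at 0.

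Long noncoding RNAs are transcribed and often spliced and polyadenylated like messenger RNA, but are not read into a known protein. Some act as scaffolds or decoys for RNA-binding proteins, some are the primary transcripts of microRNAs, and many start close to the promoter of a coding gene and may move with it or on their own. Many are kept low by the nuclear exosome, a complex that degrades RNA from its 3′ end.

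Sequences are shown for the RNAs on which the results turn, from RefSeq. The mature microRNAs lie inside members on the same strand, and capitals mark the seed, bases 2 to 8. The RefSeq table used here placed 19 microRNA genes in 10 of the 285 RNAs. It is not complete, and the deposited annotation also places microRNAs inside CTD-3252C9.4 and PVT1 and MIR424 inside MIR503HG. Of those shown, the pair in MIR222HG shares a seed, and the other 3 seeds differ.
miR-22-3p (MIR22HG, chromosome 17): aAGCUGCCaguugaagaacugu
miR-210-3p (MIR210HG, chromosome 11): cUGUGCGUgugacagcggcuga
miR-221-3p (MIR222HG, chromosome X): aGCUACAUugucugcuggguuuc
miR-222-3p (MIR222HG, chromosome X): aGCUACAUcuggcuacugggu
miR-503-5p (MIR503HG, chromosome X): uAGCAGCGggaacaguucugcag

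Promoters of 4 RNAs that moved are given below as RefSeq has them (GRCh38.p14, 300 bases around the start, 5′ to 3′ on the gene's own strand). Capitals mark the antioxidant response element core TGACNNNGC, the AP-1 motif TGANTCA and the E-box CACGTG, searched on both strands. All 4 promoters shown hold the antioxidant core, but no stated rule picked them. Their count is therefore not to be set against the 19 of the 104 that were matched. Other RNAs that moved are not shown, so these 4 do not stand for them. The LINC00657 promoter lies at chr20:36050911-36051210, minus strand, that of LINC00704 at chr10:4678021-4678320, minus strand, that of LUCAT1 at chr5:91314353-91314652, minus strand, and that of OSER1-AS1 at chr20:44210710-44211009, plus strand. In LUCAT1 and LINC00704 an AP-1 motif overlaps the antioxidant core inside the run gctgagtca.
LINC00657: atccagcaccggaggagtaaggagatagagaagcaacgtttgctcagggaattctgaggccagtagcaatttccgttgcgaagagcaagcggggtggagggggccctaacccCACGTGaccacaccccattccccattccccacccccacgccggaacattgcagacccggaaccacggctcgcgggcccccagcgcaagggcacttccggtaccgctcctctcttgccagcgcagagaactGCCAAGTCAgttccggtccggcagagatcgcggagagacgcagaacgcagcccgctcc
LINC00704: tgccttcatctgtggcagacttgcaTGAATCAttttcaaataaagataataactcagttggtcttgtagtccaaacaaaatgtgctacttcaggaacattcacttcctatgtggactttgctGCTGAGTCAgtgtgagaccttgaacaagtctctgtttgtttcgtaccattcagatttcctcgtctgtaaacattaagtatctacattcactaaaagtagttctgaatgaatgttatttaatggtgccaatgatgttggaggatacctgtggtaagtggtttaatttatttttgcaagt
LUCAT1: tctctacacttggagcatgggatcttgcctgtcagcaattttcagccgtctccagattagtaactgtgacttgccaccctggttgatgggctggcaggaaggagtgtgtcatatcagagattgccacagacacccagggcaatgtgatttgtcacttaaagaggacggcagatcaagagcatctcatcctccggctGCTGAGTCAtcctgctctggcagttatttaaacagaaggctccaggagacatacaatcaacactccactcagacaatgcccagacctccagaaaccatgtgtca
OSER1-AS1: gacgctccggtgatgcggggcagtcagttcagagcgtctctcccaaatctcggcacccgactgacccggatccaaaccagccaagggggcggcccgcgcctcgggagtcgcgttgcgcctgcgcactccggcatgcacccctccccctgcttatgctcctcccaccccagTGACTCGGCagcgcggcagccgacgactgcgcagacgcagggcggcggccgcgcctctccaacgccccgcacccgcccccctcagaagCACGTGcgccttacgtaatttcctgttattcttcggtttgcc

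Promoters were matched for 104 of the 285 RNAs. The antioxidant core was found in 19 of the 104, or 18.3%, and in 13.6% of 27305 promoters of all genes. The AP-1 motif was in 8.65% and 7.76%, and the E-box in 11.5% and 7.43%. The ATF4-type composite TGATGNAA was in 1 of the 104 (0.962% and 3.67%), the dioxin response element TNGCGTG in 2.88% and 5.51%, and TATAAA in 7.69% and 12%. These are matches of letters in a short window and are given as a description. The median share of G and C bases was 64.67% in the 104 promoters and 58.33% in all promoters. Its part in the motif shares was not tested.

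Levels came first, because most of these RNAs were rare. The median over RNAs of the mean FPKM in round 2 was 1.80, against 7.95 for the coding genes tested, and 16 of the 285 had a mean above 10. Members just inside the rule were AC004069.2, FTX and AC112721.2, with a second-highest FPKM of 1.00, 1.02 and 1.02, and just outside it lay RP11-379F4.7, RP11-575H3.1 and RP11-375I20.6, at 0.992, 0.993 and 0.997. In round 1, which the rule did not read, 182 of the 220 listed RNAs reached 1 FPKM in at least 2 of the 4 libraries and 23 were below 1 in all 4. Over the 114 RNAs with the same length in both tables, log2(FPKM + 0.1) in vehicle dark cells of the rounds correlated across RNAs at r = 0.817 and rho = 0.826. The tables gave other lengths to the rest, so other comparisons of FPKM here are within a round.

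LINC00657 was the most abundant at a mean of 81.1 FPKM in round 2, or 8.41% of the summed FPKM of all 285, and the 10 highest together held 27.7%. It carries the current symbol NORAD, a noncoding RNA induced by DNA damage that binds the Pumilio proteins, repressors of messenger RNA. Its 5339-base transcript in GENCODE 29 held 15 copies of the Pumilio element TGTANATA, whereas 250 of the 285 longest transcripts held none and HCG11 held 16. After it came RP11-54H7.4, the lung-linked pseudogene transcript SFTA1P, LINC00704, LINC00205, ZNF888, LINC00998, CH507-513H4.3, CTD-3252C9.4 and LINC00973. Type labels were not settled for all of them. LINC00998 now carries the symbol SMIM30, a gene for a small membrane protein. Both it and ZNF888 are typed protein coding in GENCODE 29, where 265 of the 285 RNAs are typed lincRNA. Of the 220 RNAs listed in round 1, the table of that round typed 156 as lincRNA, 47 as processed transcript, 12 as protein coding, 4 as antisense and 1 as pseudogene.

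**Figure D1:**
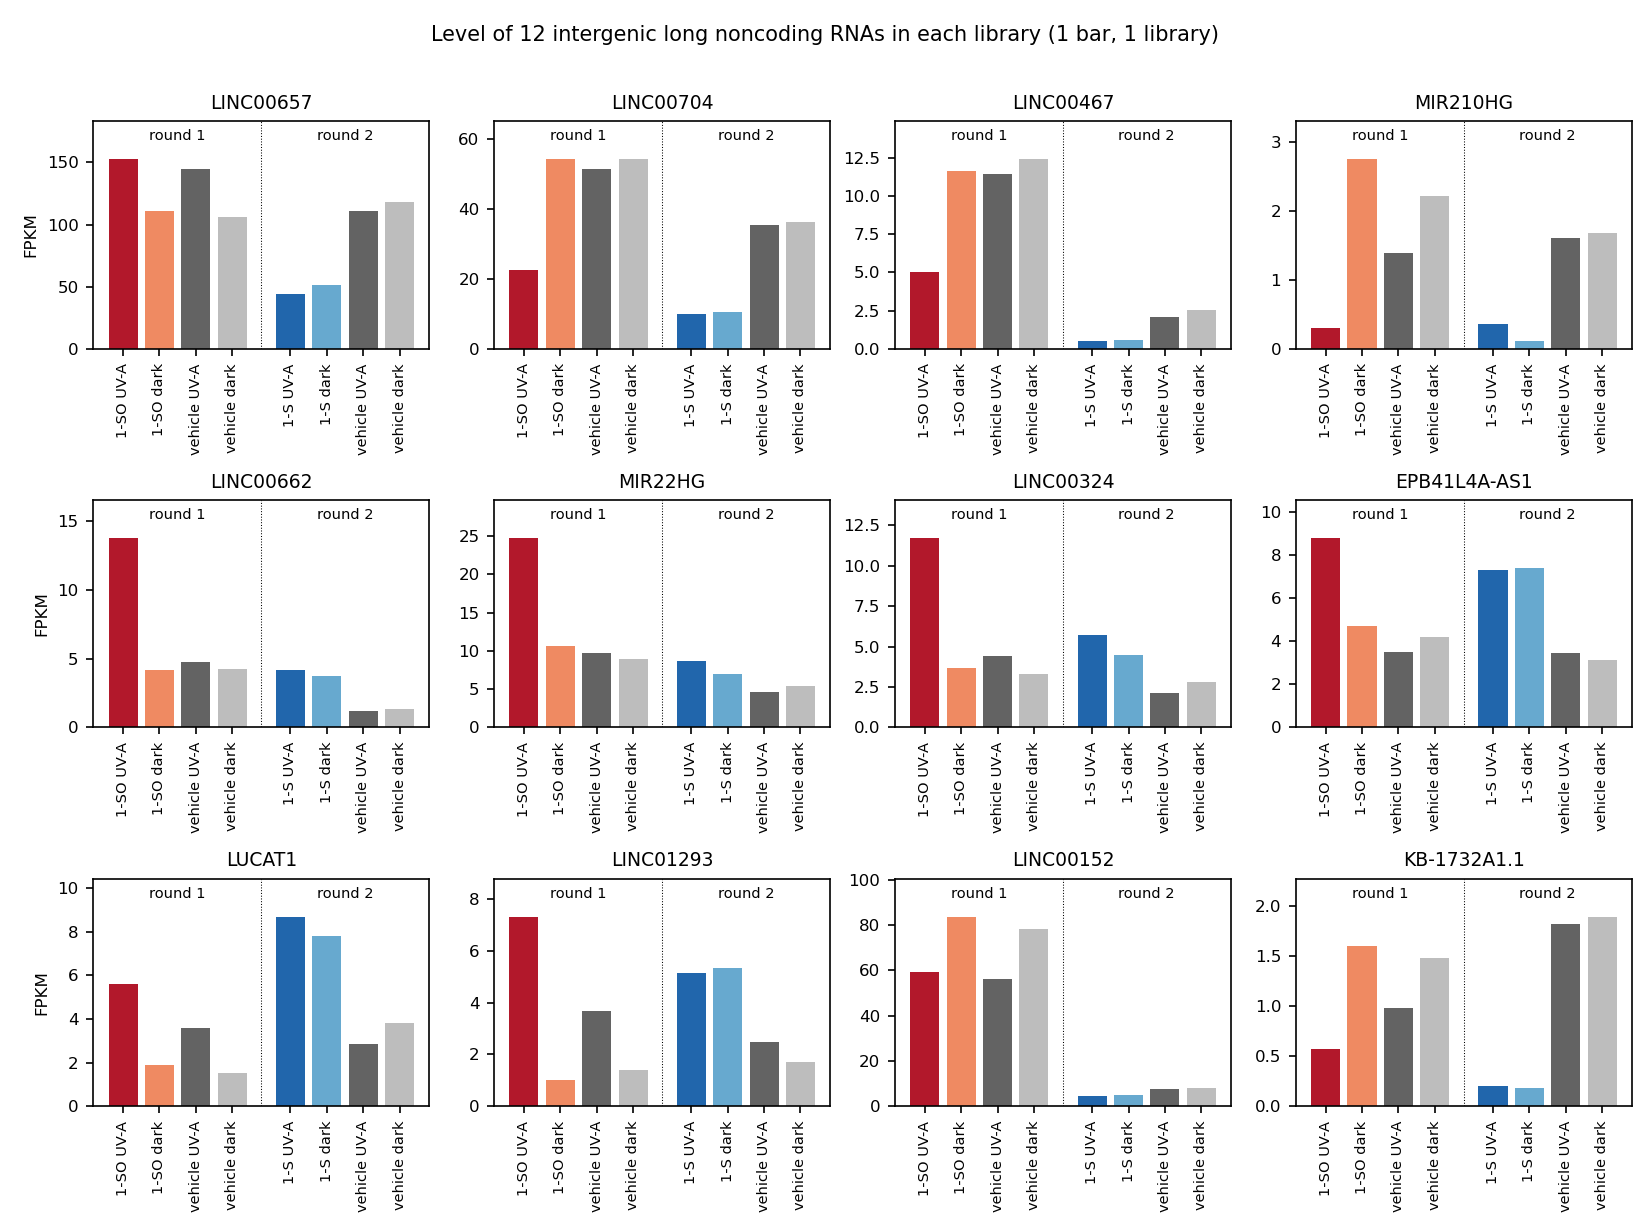
FPKM (linear axis from 0) of 12 of the RNAs in each of the 8 libraries, 1 bar per library, with round 1 left and round 2 right of the dotted line. LINC00657 was at 44.0 and 51.5 FPKM in the 1-S libraries, against 111 and 118 FPKM in the vehicle libraries of that round, while LINC00704 was lowest within its round in the 1-SO UV-A library and in both 1-S libraries.

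The first question was what 1-SO did under UV-A, against vehicle under UV-A. The edgeR quasi-likelihood test called 9 of the 220 RNAs higher and 8 lower (7.73%), at a Benjamini-Hochberg adjusted p under 0.05 over all 12696 genes. Of all genes 11.5% were called, 4.47% higher and 7.05% lower. How this share stood to that of all genes depended on the test. DESeq2 called 1.36% of the RNAs and 3.72% of all genes, whereas limma called 14.1% and 10.8% on log2(FPKM + 1), and 10.5% and 7.01% on log2(FPKM + 0.1). The median log2 fold change over the 220 was 0.13, and 0.01 over all genes. DESeq2 called 3 of these 17, LINC00704, LINC00662 and MIR22HG. It gave no adjusted p for AC003092.1, LINC01534, MIR210HG and RP11-540O11.1. RNAs and genes without one count as not called in all DESeq2 shares given here.

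LINC00704, also named MANCR, a transcript linked to mitosis and aggressive breast tumours, fell. It was at 22.5 FPKM with 1-SO under UV-A, against 54.3 FPKM with 1-SO in the dark, 51.6 FPKM with vehicle under UV-A and 54.3 FPKM with vehicle in the dark. Only the irradiated 1-SO library was low, and the other 3 lay within 3 FPKM of each other. Its log2 fold change against vehicle under UV-A was -1.31 ± 0.21 (SE, edgeR adjusted p = 0.000144) and against 1-SO in the dark -1.40 ± 0.22 (edgeR adjusted p = 8.07e-05).

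LINC00662, an intergenic RNA of chromosome 19 described in several cancers, rose. It stood at 13.8 FPKM with 1-SO under UV-A, against 4.17 FPKM with 1-SO in the dark, 4.72 FPKM with vehicle under UV-A and 4.23 FPKM with vehicle in the dark. Again the irradiated 1-SO library alone stood apart. The log2 fold change was 1.52 ± 0.25 against vehicle under UV-A (edgeR adjusted p = 0.000172). Against 1-SO in the dark it was 1.59 ± 0.28 (edgeR adjusted p = 0.000252).

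MIR22HG, the host transcript of miR-22, known to respond to chemical stress, rose as well. Its levels were 24.7 FPKM with 1-SO under UV-A, against 10.6 FPKM with 1-SO in the dark, 9.78 FPKM with vehicle under UV-A and 8.92 FPKM with vehicle in the dark. The log2 fold change against vehicle under UV-A was 1.32 ± 0.22 (edgeR adjusted p = 0.000225). It overlaps WDR81 on the other strand. The sources used here do not say whether reads were counted by strand, so those of the pair cannot be told apart. WDR81 itself had a log2 fold change of 0.55 ± 0.23 against vehicle under UV-A (edgeR adjusted p = 0.125), and was called higher against 1-SO in the dark (0.84 ± 0.25, edgeR adjusted p = 0.0222).

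MIR210HG, the host of the hypoxia-linked miR-210, fell on few reads. It had 13 reads with 1-SO under UV-A, against 96 with 1-SO in the dark, 43 with vehicle under UV-A and 82 with vehicle in the dark. The irradiated 1-SO library was the lowest of the 4, and the irradiated vehicle library was below the dark one. Its log2 fold change was -2.49 ± 0.60 against vehicle under UV-A (edgeR adjusted p = 0.00653) and -3.32 ± 0.60 against 1-SO in the dark (edgeR adjusted p = 0.000319).

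LINC00467, named among growth-linked RNAs, was at 5.00 FPKM with 1-SO under UV-A, against 11.6 FPKM with 1-SO in the dark, 11.5 FPKM with vehicle under UV-A and 12.4 FPKM with vehicle in the dark. The fall was -1.25 ± 0.37 on the log2 scale against vehicle under UV-A (edgeR adjusted p = 0.0258). LINC00324 rose to 11.7 FPKM with 1-SO under UV-A, against 3.67, 4.43 and 3.30 FPKM with 1-SO in the dark, vehicle under UV-A and vehicle in the dark (1.49 ± 0.31, edgeR adjusted p = 0.00169). EPB41L4A-AS1, which hosts the small nucleolar RNA SNORA13, rose to 8.81 FPKM, against 4.74, 3.51 and 4.21 FPKM in the same 3 libraries (1.11 ± 0.27, edgeR adjusted p = 0.00707). For all 3 the irradiated 1-SO library was the one outside the range of the others. EPB41L4A-AS1 overlaps the coding gene EPB41L4A, so reads may be assigned to either. EPB41L4A had a log2 fold change of 0.52 ± 0.32 against vehicle under UV-A (edgeR adjusted p = 0.329).

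Among the remaining called RNAs, AC003092.1 had 28 reads with 1-SO under UV-A, against 2 with 1-SO in the dark, 2 with vehicle under UV-A and 3 with vehicle in the dark. LINC01534 had 80 reads, against 19, 17 and 16, and RP11-540O11.1 24 reads, against 5, 4 and 5, in the same order. MAPKAPK5-AS1 and RP11-395G23.3 were higher by 0.99 ± 0.29 and 1.15 ± 0.33 (log2, SE). RP11-301G19.1 and RP11-214O1.2 were lower by 1.77 and 1.78 in the library ratio, with fitted log2 fold changes of -1.87 ± 0.38 and -2.25 ± 0.53. LINC01224 was lower, with a fitted value of -1.24 ± 0.28, as were RP11-554I8.2 and 1 further RNA.

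UV-A in cells holding 1-SO, against the same cells in the dark, was called for 8 RNAs as higher and 9 as lower (7.73%), beside 14.8% of all genes, 5.58% higher and 9.21% lower. With limma on log2(FPKM + 1) the order was again the other way, at 20.5% of the RNAs and 14.9% of all genes. This comparison shares the irradiated 1-SO library with the one above. LUCAT1, a stress-linked transcript of chromosome 5, was at 5.61 FPKM with 1-SO under UV-A, against 1.87 FPKM with 1-SO in the dark (1.46 ± 0.39, edgeR adjusted p = 0.0116). Vehicle cells of that round also differed with light, at 3.60 FPKM under UV-A and 1.51 FPKM in the dark. LINC01293 was at 7.32 FPKM with 1-SO under UV-A, against 1.02 FPKM with 1-SO in the dark (2.71 ± 0.50, edgeR adjusted p = 0.000428), and vehicle cells had 3.70 FPKM under UV-A and 1.39 FPKM in the dark. Against vehicle under UV-A, neither passed, with log2 fold changes of 0.92 ± 0.34 for LUCAT1 and 1.08 ± 0.40 for LINC01293 (edgeR adjusted p = 0.0758 and 0.0819).

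The interaction asked whether UV-A acted differently with 1-SO than with vehicle. It was called for 3 RNAs as higher and 4 as lower (3.18%), beside 4.37% of all genes, 1.47% higher and 2.9% lower. LINC00662, MIR22HG and LINC00324 were the higher ones, with log2 values of 1.61 ± 0.35, 1.15 ± 0.30 and 1.54 ± 0.43 (edgeR adjusted p = 0.00536, 0.0263 and 0.0356). LINC00704, MIR210HG, RP11-301G19.1 and RP11-214O1.2 were the lower ones, at -1.32 ± 0.27, -2.94 ± 0.70, -1.77 ± 0.48 and -2.18 ± 0.63. DESeq2 called 0 of the 7, while limma on log2(FPKM + 1) called 6 of them, RP11-214O1.2 being the exception. DESeq2 gave no adjusted p for LINC00324, MIR210HG, RP11-301G19.1 and RP11-214O1.2, so for these it is no miss. Over all 220 RNAs that limma fit called 6.36%, and 3.39% of all genes.

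1-SO in the dark, against vehicle in the dark, was called for 0 of the 220 RNAs by edgeR (0% of all genes), DESeq2 and limma, with 2 RNAs at an unadjusted p under 0.05 in edgeR. The library log2 ratio was 0.00 for LINC00704, -0.02 for LINC00662 and 0.07 for LINC00657. A 2-fold or larger ratio was seen for 15 of the 220, or 6.82%, and for 0.955% of all genes with 1 FPKM in at least 2 of the 4 round 1 libraries. The sets are unlike, since the 220 were chosen in round 2 and 182 of them met that level in round 1.

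**Figure D2:**
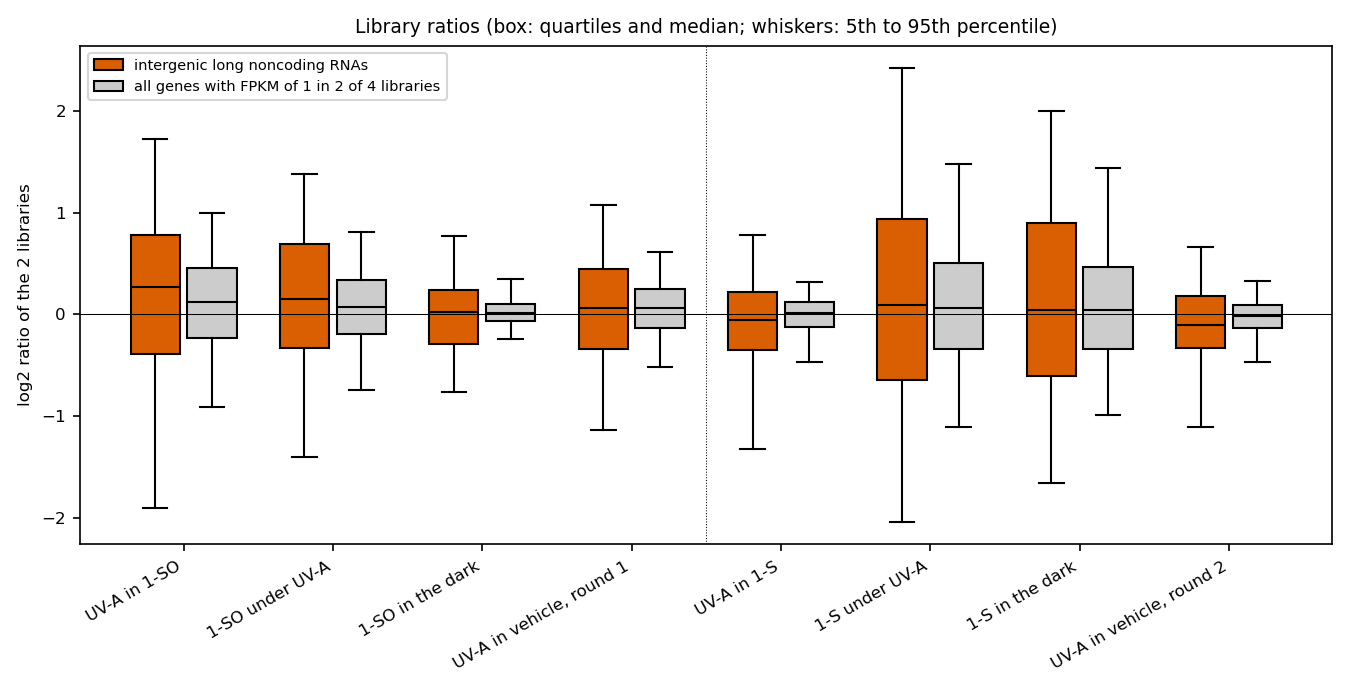
Log2 ratio of the libraries of each comparison (y axis) for the intergenic RNAs (220 in round 1, 285 in round 2) and for all genes with 1 FPKM in at least 2 of the 4 libraries of the round; boxes give quartiles and median, whiskers the 5th and 95th percentile. The boxes of the intergenic RNAs were wider in each of the 8 pairs, also in pairs with 0 calls, and the medians lay between -0.10 and 0.27. The 220 were not filtered on their level in round 1, and the part of low counts in the widths was not tested.

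In vehicle cells, which received no compound, 12.7% of the 220 RNAs differed at least 2-fold with UV-A in round 1 and 8.42% of the 285 in round 2, against 2.18% and 2.39% of all genes. The RNAs were rarer, with a median of 1.80 FPKM in round 2, against 7.95 FPKM for the coding genes tested. The part of low counts in these shares was not tested. UV-A in vehicle over both rounds was called for 0 of the 220 RNAs by edgeR (0% of all genes), DESeq2 and limma, with 6 at an unadjusted p under 0.05 in edgeR. UV-A in cells holding 1-S, its interaction and UV-A over the 4 matched pairs also gave 0 calls in edgeR (0% of all genes each), DESeq2 and limma, with 15, 12 and 8 RNAs at an unadjusted p under 0.05 in edgeR. Over the matched pairs the smallest p values were those of OSER1-AS1, at 0.63 ± 0.15, and MIR503HG, at -0.47 ± 0.12 (edgeR adjusted p = 0.759 for both).

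1-S was next compared with vehicle under the same light. The rule read the levels of these very libraries. Of the 285 RNAs, 94 reached 1 FPKM in exactly 2 of the 4 libraries, 48 of them in both 1-S libraries and 30 in both vehicle libraries, and such RNAs had to differ. The counts are therefore a description, and p values are given only for RNAs at 1 FPKM or more in all 4. With 1-S in the dark 36 RNAs were called higher and 24 lower (27.3%), beside 30.9% of all genes, 15.9% higher and 15% lower. With 1-S under UV-A 28 were called higher and 25 lower (24.1%), beside 27.5% of all genes, 13.8% higher and 13.7% lower. DESeq2 called 10 in each, or 4.55%, beside 12.4% of all genes in the dark and 11.6% under UV-A. With limma on log2(FPKM + 1) the order was the other way. It called 33.6% of the RNAs and 26.7% of all genes in the dark, and 32.3% and 24.2% under UV-A. The edgeR lists of the lights shared 33 RNAs, 55% of the dark list and 62.3% of the UV-A list, 19 higher and 14 lower in both. The same overlap was not counted over all genes, so these shares cannot be read as a trait of the intergenic RNAs.

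LINC00657 (NORAD) fell. It was at 44.0 FPKM with 1-S under UV-A and 51.5 FPKM with 1-S in the dark, against 111 FPKM with vehicle under UV-A and 118 FPKM with vehicle in the dark. The 1-S libraries thus lay below both vehicle libraries of their round. The log2 fold change was -1.52 ± 0.23 under UV-A (edgeR adjusted p = 2e-05) and -1.13 ± 0.23 in the dark (edgeR adjusted p = 0.000425). With 1-SO under UV-A it was 0.11 ± 0.22 (edgeR adjusted p = 0.802).

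LINC00704 was at 9.83 FPKM with 1-S under UV-A and 10.4 FPKM with 1-S in the dark, against 35.5 FPKM with vehicle under UV-A and 36.4 FPKM with vehicle in the dark. That gave log2 fold changes of -1.89 ± 0.22 under UV-A and -1.87 ± 0.22 in the dark (edgeR adjusted p = 2.55e-07 and 2.38e-07). LINC00705, which overlaps LINC00704 on the other strand, had 8 and 20 reads with 1-S, against 79 and 87 with vehicle, and the pair cannot be told apart without strand. LINC00705 passed the rule only through the vehicle libraries.

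LINC00662 was at 4.16 FPKM with 1-S under UV-A and 3.72 FPKM with 1-S in the dark, against 1.21 FPKM with vehicle under UV-A and 1.33 FPKM with vehicle in the dark. The rise was 1.67 ± 0.25 under UV-A and 1.49 ± 0.25 in the dark on the log2 scale (edgeR adjusted p = 1.91e-05 and 6.23e-05). EPB41L4A-AS1 stood at 7.34 and 7.43 FPKM with 1-S under UV-A and in the dark, against 3.48 and 3.14 FPKM with vehicle (1.13 ± 0.26 and 1.08 ± 0.27, edgeR adjusted p = 0.00207 and 0.00324). LUCAT1 stood at 8.70 and 7.83 FPKM, against 2.85 and 3.83 FPKM with vehicle (1.14 ± 0.35 and 1.31 ± 0.33, edgeR adjusted p = 0.0157 and 0.0031). For each of these the 1-S libraries lay apart from the vehicle libraries of their round. EPB41L4A-AS1 overlaps the coding gene EPB41L4A, so reads may be assigned to either. EPB41L4A was called higher with 1-S in the dark (0.85 ± 0.32, edgeR adjusted p = 0.0409) and not under UV-A (0.55 ± 0.33, edgeR adjusted p = 0.22).

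MIR22HG was called under UV-A, at 8.66 FPKM with 1-S, against 4.66 FPKM with vehicle (0.76 ± 0.23, edgeR adjusted p = 0.016). In the dark it was at 6.98 FPKM with 1-S, against 5.34 FPKM with vehicle (0.40 ± 0.23, edgeR adjusted p = 0.192). The interaction, which tests the difference between the lights, was not called for it or for LINC00324. LINC00324 was likewise called under UV-A, at 5.74 FPKM with 1-S, against 2.14 FPKM with vehicle (1.16 ± 0.33, edgeR adjusted p = 0.00983), and not in the dark (0.82 ± 0.32, edgeR adjusted p = 0.0547).

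LINC00152, also named CYTOR, a regulator of the cytoskeleton, was at 4.52 and 4.80 FPKM with 1-S under UV-A and in the dark, against 7.46 and 7.81 FPKM with vehicle (-0.66 ± 0.22 and -0.88 ± 0.22). It has a near-identical copy in MIR4435-2HG, so reads may be split between them and both values are uncertain. LINC00467 had 42 and 57 reads with 1-S, against 204 and 256 with vehicle. KB-1732A1.1, now GASAL1, a transcript linked to growth arrest, had 11 reads in each 1-S library, against 112 and 121 with vehicle. MIR210HG had 16 and 6 reads, against 81 and 88. RP11-158I3.3 had 20 and 21 reads with 1-S and 0 in both vehicle libraries, and RP11-12M5.4 had 15 and 21 reads, against 1 and 1. RP11-158I3.3 and RP11-12M5.4 passed the rule only through the 1-S libraries. LINC00467, KB-1732A1.1 and MIR210HG passed it only through the vehicle libraries, so a difference in these RNAs follows from the rule.

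Of the 6 host transcripts of microRNAs on the list, all tested, 1 was called higher and 1 lower with 1-SO under UV-A (MIR22HG and MIR210HG), beside 11.5% of all genes. The same pair was called with 1-S under UV-A, beside 27.5%. LINC00472, which holds MIR30A and MIR30C2, is not on that list and was named after its values were seen, was called lower with 1-S under UV-A (log2 fold change of -1.07 ± 0.36, edgeR adjusted p = 0.0248). MIR503HG stood at 30.6 FPKM with 1-SO under UV-A, against 37.8, 20.7 and 31.6 FPKM with 1-SO in the dark, vehicle under UV-A and vehicle in the dark. MIR222HG, host of the miR-221 and miR-222 that share the seed above, had 79 reads with 1-S under UV-A and 179 with 1-S in the dark, against 141 and 195 with vehicle, and was not called. CTD-3252C9.4, which now carries the symbol MIR23AHG, was at 22.3 FPKM with 1-S in the dark, against 12.2 FPKM with vehicle in the dark (0.98 ± 0.24). Under UV-A it was at 12.1 FPKM with 1-S, against 9.87 FPKM with vehicle (0.07 ± 0.26). It was called in the dark alone, and the interaction, which tests the difference between the lights, was not called for it.

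With 1-SO under UV-A 1 of 6 stress-linked RNAs was called higher and 1 lower, and 2 of 8 growth-linked RNAs higher (LINC00662 and EPB41L4A-AS1) and 1 lower (LINC00467), beside 4.47% of all genes higher and 7.05% lower. With 1-S under UV-A 2 of the 6 were called higher and 3 lower, and 2 of the 8 higher and 1 lower, beside 13.8% and 13.7% of all genes. Lists of 6 and 8 are too short to set such shares against those of all genes. CRNDE, a nuclear RNA raised in colorectal tumours, was at 19.5 FPKM with 1-SO under UV-A, against 13.5, 10.6 and 13.3 FPKM in the other round 1 libraries, and missed the threshold (0.86 ± 0.30, edgeR adjusted p = 0.0583). Of the p53-linked list PVT1 was a member, at 13.6 FPKM with 1-SO under UV-A, against 10.0, 8.82 and 10.6 FPKM, and was not called in any comparison.

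Machinery that trims or processes such RNAs was checked from lists. Of 19 genes of the nuclear exosome and its adaptors, 0 were higher and 2 lower with 1-SO under UV-A (EXOSC2 and EXOSC10, at -0.67 and -0.66, log2), and 3 were higher and 2 lower with 1-S under UV-A. These are 10.5% and 26.3% of the list, near the 11.5% and 27.5% of all genes called. The exosome adaptor ZFC3H1 was higher by 0.89 ± 0.19 and 1.07 ± 0.18 (log2) with 1-S under UV-A and in the dark. Of 11 microRNA processing genes, AGO2, which holds microRNAs, was higher by 0.58 ± 0.18 with 1-SO under UV-A, and DGCR8, the partner of the Drosha nuclease, was lower with 1-S (log2 fold changes of -0.99 ± 0.23 under UV-A and -1.18 ± 0.24 in the dark). With 1-S in the dark 4 of the 11 were called, beside 30.9% of all genes. AGO3 and AGO4, which also hold microRNAs, were higher by 0.58 ± 0.21 and 0.66 ± 0.22, and XPO5, which exports microRNA precursors, had -0.48 ± 0.18. Whether this machinery had a part in the levels of the intergenic RNAs was not tested.

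The RNAs called in the irradiated 1-SO library were also read in the 1-S libraries. The fit that called them takes its light term from the vehicle libraries of both rounds, so their signs in round 2 are shown without a count or test.

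**Figure D3:**
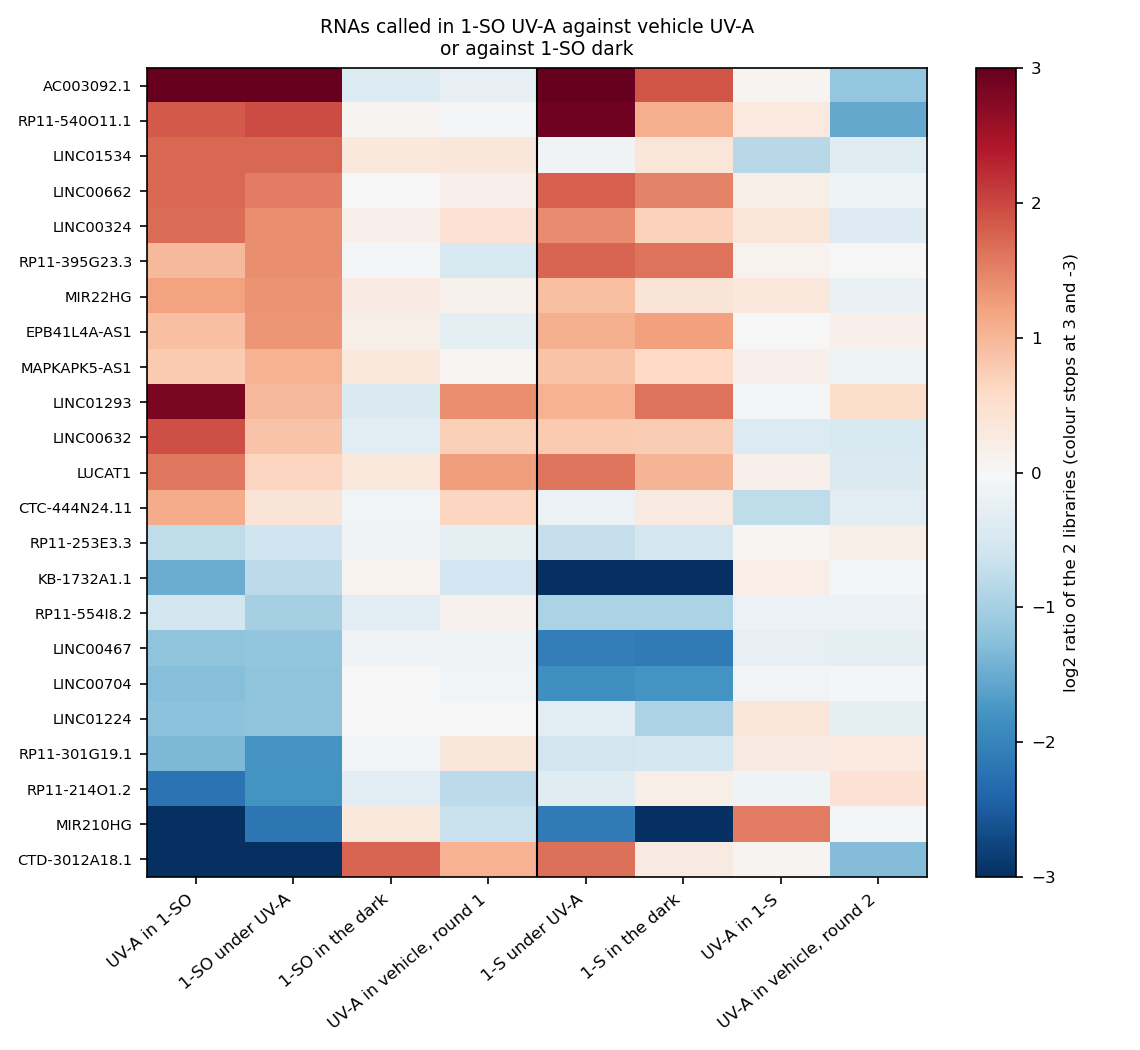
Log2 ratios of the libraries (colour, from -3 to 3) for the 23 intergenic RNAs called in 1-SO under UV-A against vehicle under UV-A or against 1-SO in the dark (rows), in 8 library pairs (columns), with round 1 left of the line. Of the 23, 13 were higher with 1-SO under UV-A than with vehicle under UV-A.

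Differences between the compounds, at the same dose and time, were tested under each light over 2 pairs of conditions, with p adjusted over all genes. Each compound was set against vehicle in the shared fit, since they were never in the same round. In the dark 11 of the 220 RNAs were higher with 1-SO than with 1-S and 11 lower (10%), beside 17.2% of all genes, 8.4% higher and 8.77% lower. All 22 were also called in 1-S against vehicle in the dark, whereas 1-SO in the dark gave 0 calls. Both tests read the same 1-S dark library, so much of this overlap follows from the design. It was not counted over all genes. The rule read the 1-S and vehicle levels behind these differences, and 12 of the 22 RNAs were below 1 FPKM in at least 1 of those 4 libraries, so the counts are a description here too. The order of the shares also turned with the test, at 19.5% of the RNAs and 13.9% of all genes with limma on log2(FPKM + 1). Under UV-A 2 were higher and 1 lower (1.36%), beside 3.55% of all genes, 1.28% higher and 2.27% lower. The oxo group of 1-SO is the named difference in structure.

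LINC00657 was the RNA called under both lights, higher with 1-SO than with 1-S by 1.63 ± 0.29 under UV-A (edgeR adjusted p = 0.00104) and by 1.06 ± 0.29 in the dark (edgeR adjusted p = 0.0122). DESeq2 called both. RP11-890B15.3 had 151 reads with 1-SO under UV-A, against 153 with vehicle, and 23 reads with 1-S under UV-A, against 157 with vehicle, a difference of 2.11 ± 0.53. RP11-200A1.1 had 0 reads with 1-SO under UV-A, against 5 with vehicle, and 15 with 1-S under UV-A, against 2 with vehicle, too few for a size.

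LINC00704 and LINC00662 differed between the compounds in the dark, by 1.88 ± 0.27 and -1.58 ± 0.35 (edgeR adjusted p = 1.66e-05 and 0.00219), where 1-S had moved them and 1-SO had not. Under UV-A the difference was not called, at 0.58 for LINC00704 (95% interval 0.05 to 1.12, edgeR adjusted p = 0.311) and -0.15 for LINC00662 (95% interval -0.80 to 0.51, edgeR adjusted p = 0.912). For LUCAT1 it was -1.53 ± 0.48 in the dark (edgeR adjusted p = 0.0273) and -0.22 under UV-A (95% interval -1.11 to 0.67). For LINC01293 it was -2.50 ± 0.61 in the dark (edgeR adjusted p = 0.00568) and 0.28 under UV-A (95% interval -0.79 to 1.34). These intervals are wide, so the misses do not show that the compounds act alike under UV-A.

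**Figure D4:**
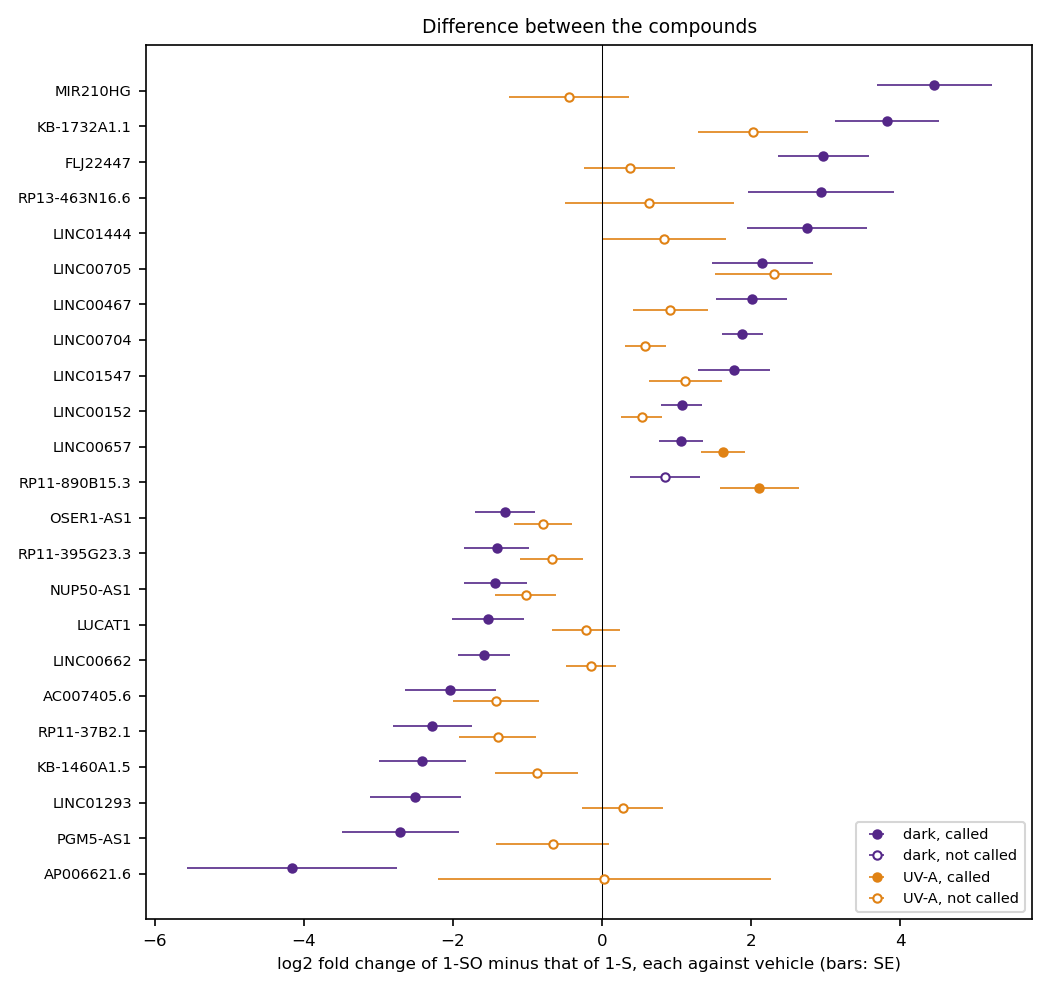
Log2 fold change of 1-SO minus that of 1-S, each against vehicle (x axis, bars give the SE), in the dark and under UV-A, for 23 RNAs called under at least 1 light; filled points were called. LINC00657 was called under both lights, RP11-890B15.3 under UV-A and the other 21 in the dark, while RP11-200A1.1, with few reads, is not drawn.

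Position was not part of the rule. Of the 285 RNAs, 156 lay within 10 kb of a protein-coding gene, 54 of them divergent from it, 44 overlapping it, 31 downstream and 20 upstream on the same strand and 7 convergent, and 48 started within 1 kb of a divergent coding gene. In all, 96 overlapped some gene on the other strand and 74 one on their own strand, where reads may be assigned to either. Across the pairs with an expressed neighbour within 10 kb, the library log2 ratios of RNA and neighbour correlated at r = 0.307 for UV-A in 1-SO (99 pairs), at 0.312 for 1-S in the dark (134 pairs) and at 0.269 for 1-S under UV-A (134 pairs). In vehicle cells r was 0.137 in round 1 and -0.029 in round 2. The pairs share libraries and differ in depth, and these are descriptions.

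OSER1-AS1 moved with its neighbour. It starts 169 bases from OSER1, a gene named for its response to oxidative stress, on the other strand. OSER1-AS1 was at 8.68 and 6.41 FPKM with 1-S under UV-A and in the dark, against 3.45 and 2.74 FPKM with vehicle (1.15 ± 0.30 and 1.31 ± 0.30, edgeR adjusted p = 0.00496 and 0.00148). OSER1 was at 87.8 and 82.0 FPKM with 1-S, against 32.9 and 32.3 FPKM with vehicle. NUP50-AS1, which starts 60 bases from the nuclear pore gene NUP50, did not follow its neighbour. It was at 7.51 and 7.97 FPKM with 1-S, against 2.86 and 3.52 FPKM with vehicle, while NUP50 was at 14.1 and 15.1 FPKM with 1-S, against 16.4 and 15.4 FPKM with vehicle.

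With 1-S in the dark 30 of the 60 called RNAs had a tested neighbour within 10 kb, of which 11 were called in the same direction, 1 in the opposite direction and 18 not called. With 1-S under UV-A the counts were 6, 2 and 17 of 25, and with 1-SO under UV-A 0 of 12 neighbours were called. The shares of neighbours called, 40% and 32% with 1-S and 0% with 1-SO, stand beside 30.9%, 27.5% and 11.5% of all genes. CTD-2639E6.9, with 27 and 52 reads with 1-S, against 6 and 5 with vehicle, ends 143 bases upstream of FTL, the ferritin light chain, on the same strand. This RNA passed the rule only through the 1-S libraries. FTL itself was at 4324 and 3946 FPKM with 1-S, against 1400 and 1336 FPKM with vehicle. Whether transcripts of FTL add to its count was not tested.

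**Figure D5:**
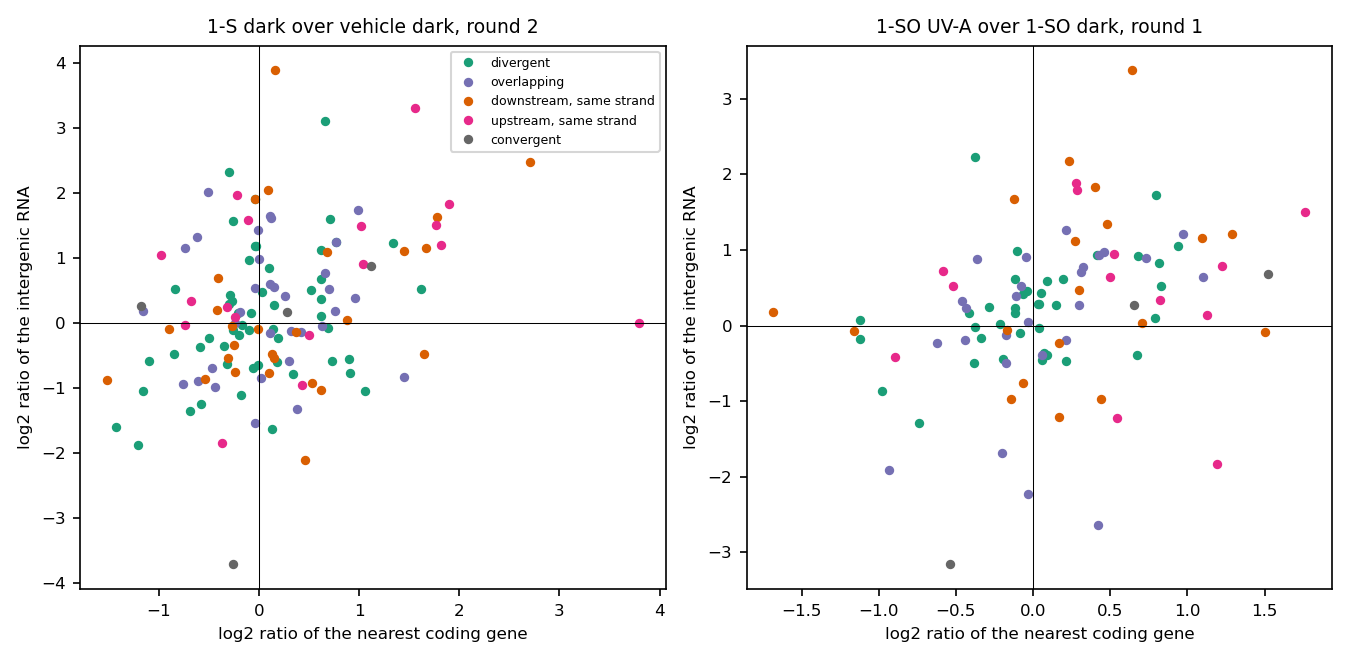
Library log2 ratio of each intergenic RNA (y axis) and of its nearest protein-coding gene within 10 kb (x axis), for 1-S in the dark over vehicle in the dark (134 pairs) and for 1-SO under UV-A over 1-SO in the dark (99 pairs); colours give the orientation. Points spread widely around a weak positive trend, with r = 0.312 and 0.307 across pairs.

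The 65 RNAs listed in round 2 alone could not enter the fit, and their library ratios have no test. With 1-S in the dark 14 were at least 2-fold higher and 10 at least 2-fold lower than with vehicle, and with 1-S under UV-A 14 and 16. These are 36.9% and 46.2% of the 65, beside 14.3% and 16.6% of all genes at the same level rule, and the rule read these libraries. RP11-54H7.4, the second most abundant of all 285, was at 15.7 and 19.1 FPKM with 1-S under UV-A and in the dark, against 53.1 and 51.5 FPKM with vehicle. CH507-513H4.3, on chromosome 21, was at 23.2 and 23.4 FPKM with 1-S, against 7.27 and 5.57 FPKM with vehicle, and near-identical copies make its counts uncertain. Both were above 1 FPKM in all 4 libraries, and in both the 1-S libraries lay apart from the vehicle libraries.

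The authors' deposited tables, made for single library pairs, gave fewer calls than edgeR did here in the shared comparisons with edgeR calls. For 1-S against vehicle under the same light they gave more than DESeq2 did here. Those 1-S tables list all 285 RNAs, against the 220 tested here. Members at the authors' adjusted p under 0.05 numbered 4 higher and 4 lower for 1-SO under UV-A against vehicle in the dark, and 0 for 1-SO under UV-A against vehicle under UV-A. These are 3.64% and 0% of the members listed in the authors' deposited tables, beside 1.7% and 0.259% of all genes listed there. In the authors' deposited table of 1-S in the dark against vehicle in the dark 8 were higher and 13 lower (7.37%, beside 1.45% of all genes). The authors' deposited tables list more genes than the 12696 tested here, whereas members were chosen on level, so these shares have no common footing. In the authors' deposited table of 1-S under UV-A against vehicle under UV-A, 17 were higher and 14 lower (10.9%, beside 1.51%), among them LINC00704 at a log2 fold change of -1.98, LINC00657 at -1.46 and LINC00662 at 1.66.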

How the data were processed

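The authors' deposited tables give whole-number read counts per gene and FPKM for 8 libraries, and FPKM was checked to equal count over length and total within 0.1%. Round 1 counts came from the deposited comparison tables, which also hold the authors' log2 fold changes and p-values, per the file headers. Tools and builds named, per the submitters' processing notes, include STAR 2.5, TopHat, HTSeq 0.6.1, edgeR 3.16.5, DESeq2, hg38 and hg19, with roles and strand use not given in the sources used here. Promoter coordinates are those of RefSeq (GRCh38.p14). Gene positions are those of the round 2 annotation, where 253 of the 285 RNAs have the same coordinates as in GENCODE 29 (GRCh38).

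The 12696 genes listed in both rounds with an FPKM of 1 in at least 2 of 8 libraries were fitted with edgeR 4.0.16 in R 4.3.3 (quasi-likelihood test, TMM within round). Terms were round, light in vehicle and each compound group, leaving 1 residual degree of freedom, moderated by 26 prior ones, and the common biological coefficient of variation was 12%. The spread comes from the vehicle light response of the rounds, and a compound library is assumed to vary like a vehicle library. UV-A over 4 matched pairs had 3 residual degrees of freedom. Tests were two-sided with Benjamini-Hochberg adjustment across all genes tested. Round is a shared batch per the labels, and round differences of vehicle cells in the dark and under UV-A correlated at 0.861 over the genes. Library ratios added 0.5 reads to each count, and 95% intervals of fitted values are normal ones from the SE. A count of 0 allows up to 3 reads, 0.133 to 0.19 CPM, for counting error only. Scripts were tested on simulated data.

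The members, lists and tests were chosen with earlier results of these data known. Named were the 10 highest RNAs, up to 4 called RNAs with the largest change in each direction of each comparison, and the members of 4 lists of known RNAs; others are named where a sentence turns on them, after their values were seen. Alternatives were DESeq2 1.42.0, limma 3.58.1 on log2(FPKM + 1) and log2(FPKM + 0.1), other scaling and filters, no replicate block and leaving out pairs.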

Additional observations from a re-analysis of the deposited data

Results flagged for a closer look

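Tests of a difference between groups picked out the following. The interaction of UV-A with 1-SO was called by edgeR for 7 RNAs (3.18%, beside 4.37% of all genes). DESeq2 called 0 of the 7, and 1.16% of all genes. It gave no adjusted p for LINC00324, MIR210HG, RP11-301G19.1 and RP11-214O1.2. The edgeR log2 values were 1.61 for LINC00662, 1.15 for MIR22HG, 1.54 for LINC00324, -1.32 for LINC00704, -2.94 for MIR210HG, -1.77 for RP11-301G19.1 and -2.18 for RP11-214O1.2.

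A difference between 1-SO and 1-S in the dark was called by edgeR for 22 RNAs (10%, beside 17.2% of all genes), and by DESeq2 for 2 of them. For several of the others, among them MIR210HG, KB-1732A1.1 and FLJ22447, DESeq2 gave no adjusted p. The rule that chose the RNAs read the 1-S and vehicle levels of round 2, and 12 of the 22 were below 1 FPKM in at least 1 of those libraries, so the values are a description. Values of 1-SO minus 1-S were 4.45 for MIR210HG, 3.83 for KB-1732A1.1, 2.97 for FLJ22447, 2.94 for RP13-463N16.6, 2.15 for LINC00705, 2.01 for LINC00467, 1.88 for LINC00704, 1.07 for LINC00152 and 1.06 for LINC00657. They were -1.53 for LUCAT1, -1.58 for LINC00662, -2.41 for KB-1460A1.5, -2.5 for LINC01293, -2.7 for PGM5-AS1 and -4.16 for AP006621.6. PGM5-AS1 has near-identical copies, and AP006621.6 had 31 reads at most.

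Under UV-A edgeR called a difference between the compounds for 3 RNAs (1.36%, beside 3.55% of all genes). Of these, 2 were likewise below 1 FPKM in at least 1 library of round 2. The values were 1.63 for LINC00657, 2.11 for RP11-890B15.3 and -9.04 for RP11-200A1.1. The fitted value of RP11-200A1.1 rests on libraries with 0 to 15 reads and is no bound. Compound and round cannot be told apart in any of these.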

How the results depend on the processing

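Counts of calls depended on the test. DESeq2 called 10 RNAs for 1-S in the dark, 10 for 1-S under UV-A, 3 for 1-SO under UV-A, 4 for UV-A in 1-SO, 2 (dark) and 1 (UV-A) for 1-SO against 1-S, and 0 for the interaction with 1-SO, in place of 60, 53, 17, 17, 22, 3 and 7. These DESeq2 counts are 4.55%, 4.55%, 1.36%, 1.82%, 0.909%, 0.455% and 0% of the RNAs. Of all genes DESeq2 called 12.4%, 11.6%, 3.72%, 4.64%, 5.03%, 1.07% and 1.16%, in the same order. RNAs and genes to which DESeq2 gave no adjusted p count as not called in these shares. limma on log2(FPKM + 1) called 31 for 1-SO under UV-A, 45 for UV-A in 1-SO, 43 (dark) and 7 (UV-A) for 1-SO against 1-S, and 14 for the interaction. In each of these limma called a larger share of the RNAs than of all genes (14.1% and 10.8%, 20.5% and 14.9%, 19.5% and 13.9%, 3.18% and 2.56%, 6.36% and 3.39%), where edgeR called a smaller one. On log2(FPKM + 0.1) it called 34 for 1-SO against 1-S in the dark (15.5%, beside 11% of all genes) and 30 for UV-A in 1-SO (13.6%, beside 10.1%). Asking for an FPKM of 1 in all 8 libraries left 105 RNAs and gave 31, 28 and 1 for 1-S in the dark, 1-S under UV-A and 1-SO against 1-S under UV-A. These are 29.5%, 26.7% and 0.952% of the 105, beside 34.8%, 31.7% and 4.51% of all genes at that filter. Without an FPKM filter, 2 RNAs were called over the 4 matched pairs (0.909%, beside 1.01% of all genes). With no replicate block, that is without the round term, each of the 12 comparisons gave 0 calls, as the fit then counts differences between rounds as spread. Leaving out each of the 4 pairs gave 0 to 0 calls for UV-A over matched pairs. Leaving out a round leaves no residual degrees of freedom, so UV-A in vehicle then has no test. Of 97 results of named RNAs called, 0 changed sign. DESeq2 kept 25 of the 61 for which it gave an adjusted p, and median-of-ratios scaling kept 88 of 97. Within 5 kb and 50 kb of a coding gene lay 128 and 215 RNAs. On the gene's own strand 9 promoters held the antioxidant core, 3 the TATA box and 0 the ATF4-type composite or the dioxin response element. RNAs with few reads limit all of these counts.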
